A study of Homo sapiens with 6 samples.

Results

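Mitochondrial protein quality control was followed in 10 nuclear genes picked by name for their roles: the matrix chaperonin pair HSPD1 and HSPE1, the matrix proteases LONP1, CLPP and CLPX, the inner membrane proteases YME1L1, AFG3L2 and SPG7, and the stress relay of OMA1 and DELE1. All 10 were found among the 60616 gene rows of the files, and all 10 passed the filter on low counts, which kept 16719 genes. The rule of choice used no measured value, though earlier results of these data were known. The cells were 12Z, an immortalized human endometriotic line of wild type genotype by the labels, grown with 10% charcoal-stripped serum. In the treated group, frankincense extract dissolved in DMSO was present at 70 ug/mL for 12 h, and in the vehicle group DMSO alone. Each group had 3 RNA-seq libraries made from 1.5 ug of total RNA, and whether these came from separate cultures is not stated. The p-values therefore set differences against the spread between these samples only, which may be technical. A single line was used, so nothing here can be set against another line or against tissue.

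Most mitochondrial proteins are made in the cytosol, imported unfolded and then folded inside the organelle. Chaperonins fold them in the matrix, and ATP-dependent proteases remove those that misfold or lack partners, on either face of the inner membrane and in the matrix. When the inner membrane is disturbed, the protease OMA1 cleaves DELE1, a fragment of which reaches the kinase HRI in the cytosol and starts the integrated stress response, the programme led by the transcription factor ATF4.

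By their RefSeq starts HSPD1 and HSPE1 stand head to head on chromosome 2 and are transcribed away from each other. Their start regions are printed because this pair moved in opposite directions. RefSeq (GRCh38.p14) places a start of HSPE1 on the plus strand at 197500379 and starts of HSPD1 on the minus strand at 197499840 and 197500274, which are 539 and 105 bases away. Each window holds 250 bases before the start and 50 after it, read 5′ to 3′ on the strand of the gene. Capitals mark matches to the core of the heat shock element, GAANNTTC or TTCNNGAA. The HSPD1 window is chr2:197499791-197500090, minus strand, and the HSPE1 window is chr2:197500129-197500428, plus strand.
HSPD1: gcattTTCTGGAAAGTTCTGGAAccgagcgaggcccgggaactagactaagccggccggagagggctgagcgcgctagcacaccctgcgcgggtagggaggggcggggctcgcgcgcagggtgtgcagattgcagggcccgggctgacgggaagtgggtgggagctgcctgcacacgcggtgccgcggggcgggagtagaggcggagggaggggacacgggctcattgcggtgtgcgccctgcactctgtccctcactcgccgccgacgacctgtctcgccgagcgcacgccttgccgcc
HSPE1: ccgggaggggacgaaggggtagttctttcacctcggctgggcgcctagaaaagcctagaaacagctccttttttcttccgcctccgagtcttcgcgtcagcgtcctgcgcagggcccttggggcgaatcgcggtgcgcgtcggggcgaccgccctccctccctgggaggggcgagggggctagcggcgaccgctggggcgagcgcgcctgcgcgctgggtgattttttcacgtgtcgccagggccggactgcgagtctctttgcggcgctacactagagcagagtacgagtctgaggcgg
In the HSPD1 window 3 overlapping matches formed a single run of 18 bases, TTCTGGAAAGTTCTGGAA (chr2:197500068-197500085). It began 245 bases before the HSPD1 start, and its nearest base lay 294 bases before that of HSPE1, outside the printed HSPE1 window. No core was found in the HSPE1 window or in that of the other HSPD1 start. RefSeq windows were at hand for 8 of the 10 genes, 11 windows in all, and none besides that of HSPD1 held this core, which 13.5% of all 35116 windows held. The C/EBP-ATF element TGATGCAA or TTGCATCA, at 0.866% of all windows, and the ATF/CRE site TGACGTCA, at 1.85%, were in none of the 11. Both strands were read for each motif. These are matches of letters and were not tested as binding sites.

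The libraries held 22615150 to 27615196 expected counts, RSEM's estimates of the reads of each gene. Frankincense replicate 3 stood apart from the other treated libraries on the second principal component, at -27.6 against 7.99 and 19.95. The vehicle libraries lay between -4.86 and 7.79. Across 16634 genes the signed log2 deviation of frankincense replicate 3 from treated replicates 1 and 2 rose with transcript length (Spearman's rho of 0.30, a description only). That library stood relatively higher in genes with longer transcripts than in genes with shorter ones. Values without it are therefore given where they matter. Transcripts encoded by the mitochondrial genome took 16.3% to 17.9% of TPM in treated libraries and 26.6% to 27.1% in vehicle libraries. TPM, a transcript abundance per length, is scaled to the same total in every library, so this shift moves every other TPM: the median log2 change over the genes tested was 0.20 on that scale and -0.0016 in counts with TMM scaling. Of 8 epithelial markers 2 were called higher and 5 lower in counts, and of 7 stromal markers likewise 2 higher and 5 lower. The keratins KRT8 and KRT18 averaged 684 and 582 TPM in treated cells and 771 and 661 TPM in vehicle cells, while KRT7, called higher, averaged 13.2 TPM and 5.84 TPM. EPCAM, also called higher, averaged 1.97 TPM in treated and 1.12 TPM in vehicle cells, and the epithelial cadherin CDH1 was at most 0.23 TPM in any library. Among stromal markers CDH2 and MME were the ones called higher, and VIM, a mesenchymal intermediate filament, averaged 1970 TPM in treated and 2050 TPM in vehicle cells. Summed levels of the epithelial markers lay at 1380 to 1430 TPM in treated and 1610 to 1640 TPM in vehicle libraries, those of the stromal markers at 2780 to 2970 TPM in treated and 3700 to 3770 TPM in vehicle libraries, and those of 4 endothelial markers at no more than 0.27 TPM. Among immune markers, CD3E, a T cell gene, was at 0 and the macrophage-associated CD68 was at 34.5 to 63.6 TPM in treated and 28.2 to 30.8 TPM in vehicle libraries without a call, while the monocyte marker CD14 was called lower, at 0.413 TPM in treated and 2.53 TPM in vehicle cells on average. The part of these shifts in the results was not tested.

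After the extract, 6 of the 10 genes were higher and 2 lower at an adjusted p under 0.05 (edgeR's quasi-likelihood test, Benjamini-Hochberg adjustment over all genes tested). Over all 16719 genes 62.9% were called, 31.9% higher and 31.0% lower, so a call by itself sets no gene apart in these data. The median log2 fold change of the 10 genes was 0.22, against -0.0016 for all genes tested. LONP1 rose most, HSPD1, YME1L1 and AFG3L2 rose by 0.51 to 0.60 on the log2 scale, and CLPP and OMA1 had smaller rises. HSPE1 and SPG7 fell, and CLPX and DELE1 did not pass the test. In RNA from whole cultures, a lower share of some cells and less RNA per cell cannot be told apart. Count levels (CPM, counts divided by the TMM-scaled library size) did not overlap between the groups for 8 of the 10 genes, and for 67.5% of all genes tested.

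**Figure D1:**
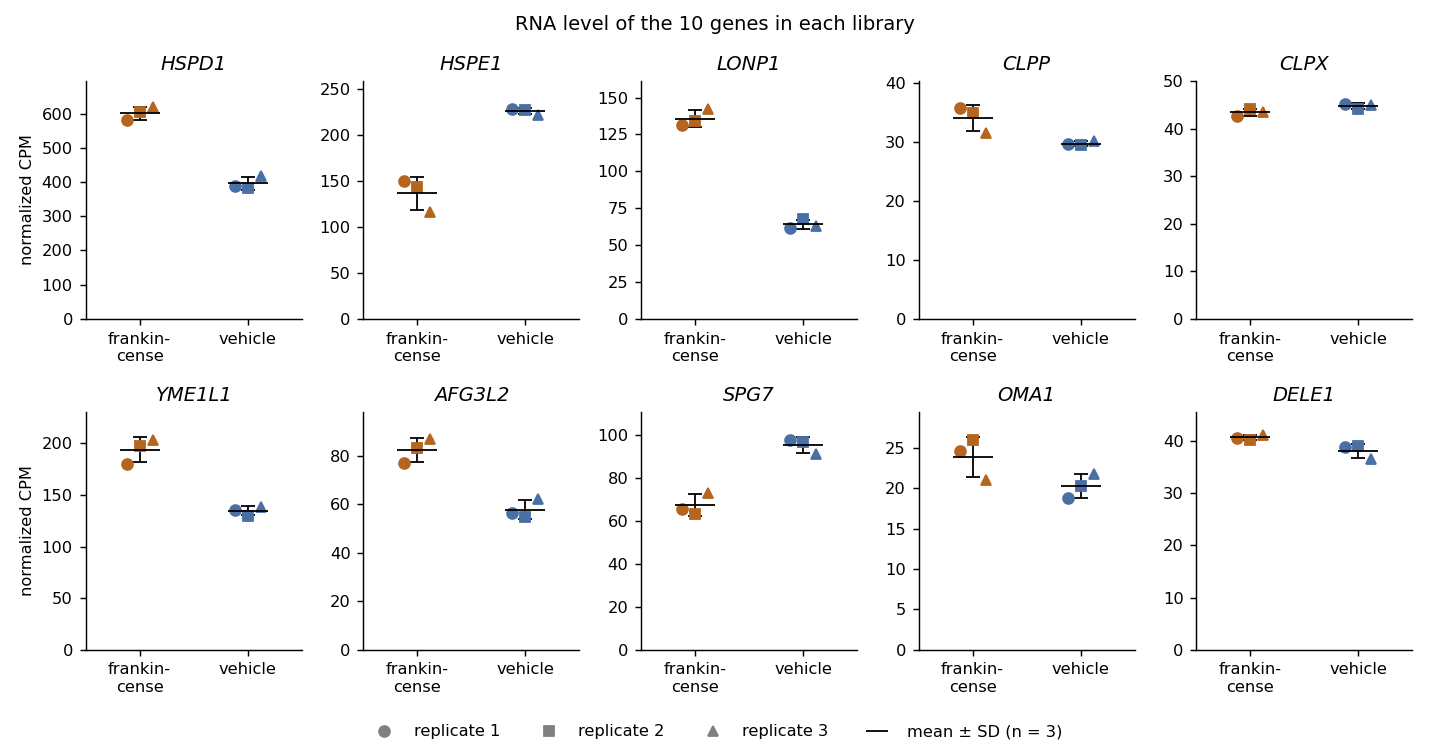
Normalized CPM (linear axis from 0) of each gene in the 3 frankincense and the 3 vehicle libraries. Points are libraries, with replicates 1, 2 and 3 as circles, squares and triangles, and bars are the mean and SD; the groups overlap only for CLPX and OMA1.

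The RNAs of the chaperonin's barrel and lid changed in opposite directions. Positions are those of GENCODE 29 on GRCh38, where the span of HSPE1 lies inside that of HSPD1, unlike the RefSeq starts given above. HSPD1 (ENSG00000144381, chr2:197486581-197516737, minus strand), which encodes HSP60, the barrel in which matrix proteins fold, had 581.2, 605.1 and 618.4 CPM in treated libraries, against 388.7, 383.3 and 416.6 CPM in vehicle libraries. Every treated library was above every vehicle library. The rise was 1.52-fold, a log2 fold change of 0.60 ± 0.058 (SE; edgeR adjusted p = 4.5e-07). HSPE1 (ENSG00000115541, chr2:197499994-197503457, plus strand), which encodes HSP10, the lid of that barrel, had 150.1, 143.1 and 116.5 CPM in treated libraries, against 228.6, 227.3 and 222.1 CPM in vehicle libraries. All treated libraries lay below all vehicle libraries, and frankincense replicate 3 was the lowest. HSPE1 fell by 0.73 ± 0.080 on the log2 scale, a 1.65-fold lower level (edgeR adjusted p = 4.8e-06), and by 0.61 without frankincense replicate 3. That library lay at -0.33 from the mean log2 level of treated replicates 1 and 2 in HSPE1, and at 0.06 in HSPD1.

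As RNA abundance per length, HSPE1 averaged 494 ± 38.3 TPM in treated cells and 692 ± 10.8 TPM in vehicle cells (SD, n = 3 each), and HSPD1 419 ± 34.7 TPM and 232 ± 11.7 TPM. Within a library the ratio of HSPD1 to HSPE1 was 0.739, 0.817 and 1.01 in treated cells, against 0.328, 0.325 and 0.355 in vehicle cells. HSPE1 RNA was the more abundant in all libraries but frankincense replicate 3, and every treated ratio lay above every vehicle ratio. The log2 ratio was higher by 1.34 in treated cells, with no overlap (exact permutation test over libraries, two-sided, p = 0.1, the smallest that 3 against 3 allows; adjusted p = 0.25 over the 5 ratios examined), and the difference was 1.21 to 1.44 when any single library was left out. HSPD1 and HSPE1 share 281 exon bases on opposite strands in GENCODE 29, 6.62% of those of HSPD1 and 14.2% of those of HSPE1, and no source states that strand was recorded. Counting all other genes, 23.9% of the HSPE1 exon bases are shared. The files list 24 HSPD1 transcripts, of which 13 are in GENCODE 29, so these shares leave out the remaining HSPD1 transcripts. The 18 HSPD1 and 26 HSPE1 pseudogene rows held at most 0.197% and 0.334% of the counts of their parent gene.

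The matrix proteases differed in size of change. LONP1 (ENSG00000196365, chr19:5691834-5720572, minus strand), an ATP-dependent protease that degrades damaged matrix proteins, had 131.1, 133.8 and 142.5 CPM in treated libraries, against 61.8, 67.66 and 63.14 CPM in vehicle libraries. Its level about doubled: the groups were far apart, with a 2.11-fold rise (log2 fold change of 1.08 ± 0.055, edgeR adjusted p = 5.7e-10), larger than that of 95.6% of all genes tested. CLPP (ENSG00000125656, chr19:6361452-6368910, plus strand), the proteolytic chamber of the other matrix protease, had 35.75, 34.86 and 31.5 CPM in treated libraries, against 29.64, 29.39 and 30.07 CPM in vehicle libraries. The groups did not overlap, but frankincense replicate 3 lay close to the vehicle libraries. CLPP rose 1.15-fold (log2 fold change of 0.20 ± 0.065, edgeR adjusted p = 0.0159), and the call was lost without frankincense replicate 1 (adjusted p = 0.075) or without replicate 1 or 2 of the vehicle (0.054 and 0.0605). Without frankincense replicate 3 the log2 fold change was 0.26 (edgeR adjusted p = 5.6e-04).

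CLPX (ENSG00000166855, chr15:65148219-65185342, minus strand), the unfoldase that feeds substrates into CLPP, had 42.76, 44.23 and 43.56 CPM in treated libraries, against 45.31, 44.21 and 44.91 CPM in vehicle libraries. These groups overlapped, with a log2 fold change of -0.04 ± 0.054 (edgeR adjusted p = 0.517) whose sign was positive on the TPM scale and with library size scaling. The ratio of CLPX to CLPP, from TPM, was 0.239 ± 0.034 in treated cells and 0.281 ± 0.024 in vehicle cells (SD, n = 3 each), with overlapping groups (exact permutation p = 0.2; adjusted p = 0.333). Its log2 difference was -0.24 from TPM and from counts, where the exact permutation p was 0.1, and -0.12 without frankincense replicate 1.

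The inner membrane proteases also split. YME1L1 (ENSG00000136758, chr10:27110112-27155266, minus strand), whose active site faces the intermembrane space, had 180.2, 197.5 and 203.5 CPM in treated libraries, against 135.7, 129.7 and 138.4 CPM in vehicle libraries. It rose 1.44-fold with no overlap (log2 fold change of 0.53 ± 0.059, edgeR adjusted p = 2.1e-06). AFG3L2 (ENSG00000141385, chr18:12328944-12377314, minus strand), a subunit of the protease that faces the matrix and is able to work without a partner, had 77.15, 83.38 and 87.08 CPM in treated libraries, against 56.52, 54.7 and 62.32 CPM in vehicle libraries. It rose 1.43-fold, again with no overlap (log2 fold change of 0.51 ± 0.063, edgeR adjusted p = 6.0e-06). In GENCODE 29, 12.6% of its exon bases are shared with TUBB6, a tubulin gene on the opposite strand, which fell by 0.32 ± 0.059 on the log2 scale (edgeR adjusted p = 2.7e-04), and 6.04% of those of YME1L1 with MASTL, a mitotic kinase gene whose log2 fold change was 0.17.

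SPG7 (ENSG00000197912, chr16:89490719-89557768, plus strand) encodes paraplegin, which joins AFG3L2 in mixed complexes. It had 65.75, 63.43 and 72.93 CPM in treated libraries, against 97.9, 96.86 and 91.3 CPM in vehicle libraries. All treated libraries were below all vehicle libraries, and SPG7 fell by 0.50 ± 0.059 on the log2 scale, a 1.42-fold lower count level (edgeR adjusted p = 4.0e-06). In TPM, however, the values were 44.31, 44.3 and 50.18 in treated libraries and 50.12, 49.3 and 49.85 in vehicle libraries, which overlap, and the change was -0.11 on the log2(TPM + 1) scale (limma adjusted p = 0.194); after TPM was rescaled without mitochondrially encoded genes it was -0.29 (limma adjusted p = 0.00478). The ratio of AFG3L2 to SPG7, from TPM, was 0.791, 0.86 and 0.869 in treated cells, against 0.449, 0.434 and 0.507 in vehicle cells. It was higher in every treated library, by 0.86 on the log2 scale (exact permutation p = 0.1, the smallest possible; adjusted p = 0.25), and by 0.81 to 0.93 when a library was left out. From counts in place of TPM the log2 difference of this ratio was 1.02 (exact permutation p = 0.1).

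**Figure D2:**
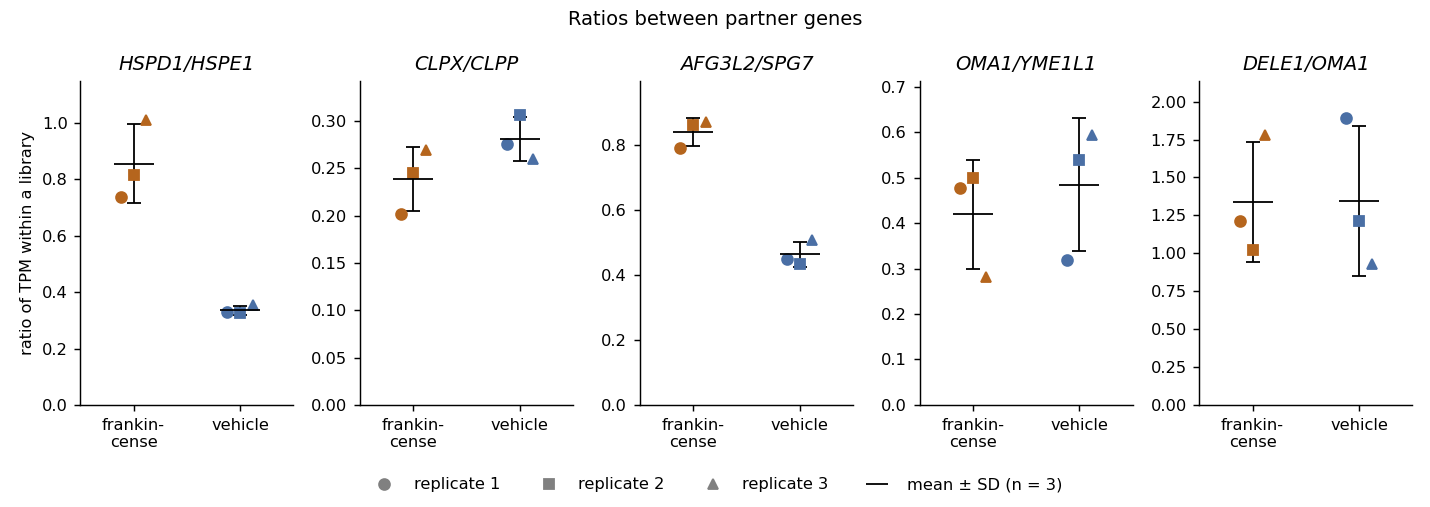
Ratio of TPM between partner genes within each library (linear axis from 0), with the mean and SD of 3 libraries as bars. HSPD1/HSPE1 and AFG3L2/SPG7 are higher in all treated libraries, and the groups overlap in the other TPM ratios.

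OMA1 and DELE1, the relay from the inner membrane to the cytosol, showed small differences in counts. OMA1 (ENSG00000162600, chr1:58415384-58546802, minus strand), the stress-activated protease, had 24.63, 25.95 and 21.08 CPM in treated libraries, against 18.84, 20.24 and 21.75 CPM in vehicle libraries. Frankincense replicate 3 lay within the vehicle range. The rise was 1.18-fold (log2 fold change of 0.23 ± 0.086, edgeR adjusted p = 0.0271), and the call was lost without frankincense replicate 1 or 2 (adjusted p of 0.0865 and 0.111), without vehicle replicate 1 or 2 (0.128 and 0.0786), and on the TPM scale. The log2 fold change was 0.33 without frankincense replicate 3 (edgeR adjusted p = 4.4e-04) and 0.29 without vehicle replicate 3 (edgeR adjusted p = 0.0288). Of its exon bases 6.91% are shared with DAB1, an adaptor gene on the same strand that fell by 1.99 ± 0.17 on the log2 scale, on 2.02 CPM in treated and 8.04 CPM in vehicle cells. YME1L1 and OMA1 process the same substrate, the fusion protein OPA1; the ratio of OMA1 to YME1L1, from TPM, was 0.42 ± 0.12 in treated cells and 0.485 ± 0.146 in vehicle cells, with overlapping groups (exact permutation p = 0.5; adjusted p = 0.625). From counts in place of TPM its log2 difference was -0.29 (exact permutation p = 0.1).

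DELE1 (ENSG00000081791, chr5:141923808-141942047, plus strand), the messenger that OMA1 cuts, had 40.65, 40.23 and 41.22 CPM in treated libraries, against 38.81, 39.06 and 36.63 CPM in vehicle libraries. Although these values do not overlap, the gap was small, at a log2 fold change of 0.09 ± 0.057 (edgeR adjusted p = 0.17). In TPM the same gene had 36.2, 35.27 and 41.55 in treated libraries and 26.29, 25.4 and 24.25 in vehicle libraries. On the log2(TPM + 1) scale the difference was 0.55 (limma adjusted p = 3.5e-04), and 0.38 after rescaling without mitochondrially encoded genes (limma adjusted p = 0.00338). The ratio of DELE1 to OMA1, from TPM, averaged 1.34 in both groups (SD of 0.40 in treated and 0.49 in vehicle cells; exact permutation p = 1).

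TPM and counts part where the length assigned to a gene moves, and RSEM gives each gene the average length of its transcripts, each counted by how abundant it was in that library. For DELE1 this length was 1697.92, 1738.92 and 1657.72 bases in treated libraries, against 1938.45, 1965.84 and 1993.78 bases in vehicle libraries. All treated libraries were shorter, by 0.21 ± 0.023 on the log2 scale (limma adjusted p = 0.0318, over 13734 genes whose length varied, of which 1.38% were called). DELE1 was the only one of the 10 genes called, and the call did not survive the loss of any single library: the log2 difference was -0.23 to -0.19, and the adjusted p was 0.108 without frankincense replicate 1, 0.0678 without frankincense replicate 2, 0.0577 without frankincense replicate 3, 0.113 without vehicle replicate 1, 0.138 without vehicle replicate 2 and 0.116 without vehicle replicate 3. GENCODE 29 lists 7 DELE1 transcripts of 686 to 4970 bases, 4 of them protein-coding, and no other gene shares its exon bases; the gene tables do not say which transcript changed.

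For SPG7 the length was 2187.93, 2138.18 and 2346.55 bases in treated libraries, against 2508.97, 2463.65 and 2380.14 bases in vehicle libraries. These did not overlap either, but the difference of -0.14 ± 0.042 was not called (limma adjusted p = 0.232). SPG7 has 96 transcripts in the files, the most among the 10 genes. For OMA1 the length ranged from 1201.62 to 1528.47 bases in treated and from 1177.05 to 1792.74 bases in vehicle libraries. Vehicle replicate 1 had the longest OMA1 length and, at 13.91, the lowest TPM. The length differences of the other 7 genes were -0.01 to 0.02 on the log2 scale.

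**Figure D3:**
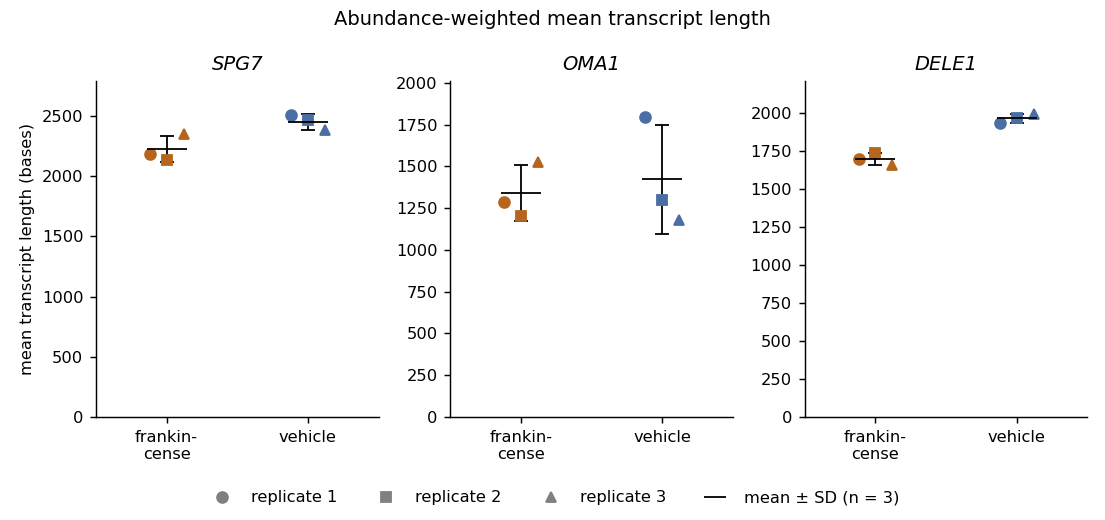
Mean transcript length in bases (linear axis from 0) that RSEM assigned to SPG7, OMA1 and DELE1 in each library, with the mean and SD of 3 libraries as bars. DELE1 lengths are 1658 to 1739 bases in treated and 1938 to 1994 bases in vehicle libraries; the OMA1 groups overlap.

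**Figure D4:**
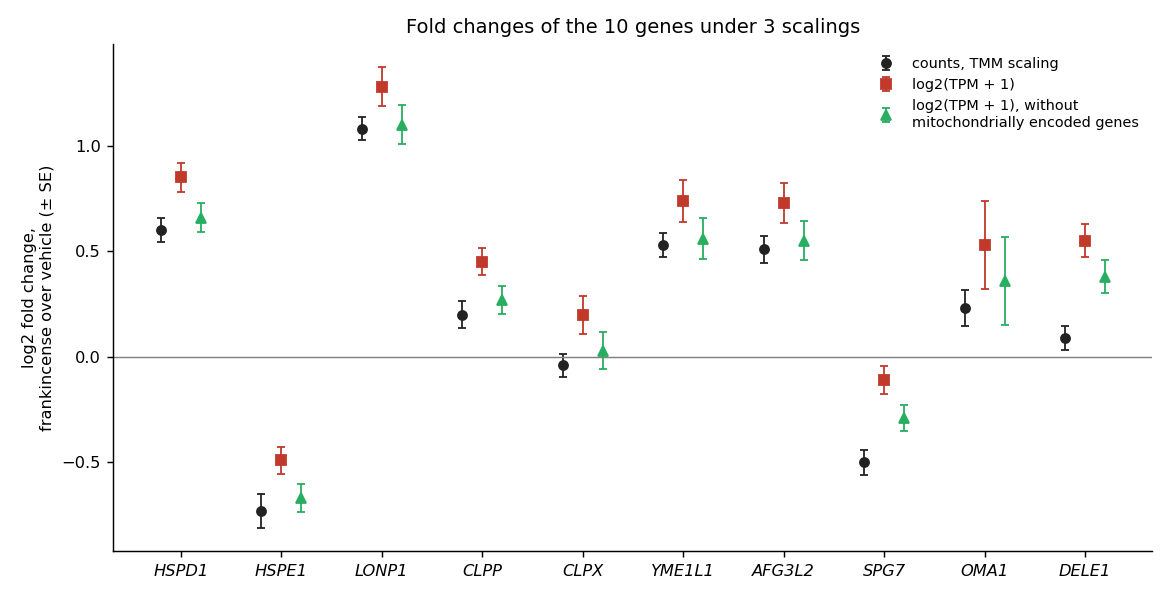
Log2 fold change (frankincense over vehicle, with SE) of each gene from counts with TMM scaling, from log2(TPM + 1), and from log2(TPM + 1) after removal of mitochondrially encoded genes from the total. HSPE1 and SPG7 are below 0 in all 3, CLPX changes sign, and DELE1 moves from 0.09 to 0.55.

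Set in order of TPM, treated cells had HSPE1, HSPD1, CLPP, LONP1, YME1L1, SPG7, AFG3L2, DELE1, OMA1 and CLPX, with means running from 494 to 21.4. Libraries of neighbours overlapped for HSPE1 and HSPD1, for CLPP, LONP1 and YME1L1, and for AFG3L2 and DELE1. In vehicle cells the order was HSPE1, HSPD1, CLPP, SPG7, YME1L1, LONP1, DELE1, AFG3L2, OMA1 and CLPX, with means from 692 to 18.4, and overlaps only among the last 4. LONP1 stood in 4th place in treated cells and 6th in vehicle cells. SPG7 had the 6th place in treated and the 4th in vehicle cells.

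Other genes of mitochondrial quality control were read from 5 lists of 43 genes chosen by role. In the count test 31.9% of all 16719 genes were higher and 31.0% lower, the shares to set beside this and each list below. Of the 42 list genes tested, 23 were higher and 8 lower, with a median log2 fold change of 0.26. On the log2(TPM + 1) scale 30 were higher and 1 lower, and the share of all calls that were higher was 74.8% there against 50.7% in the count test; without vehicle replicate 1 the lower calls numbered 5. The mitochondrial HSP70 system pulls proteins in and hands them to the chaperonin. Its list, which also held a mitochondrial HSP90 and a disaggregase, had 6 of 7 genes higher and 0 lower, with a median of 0.62. HSPA9, the mitochondrial HSP70, averaged 709 ± 15.6 CPM in treated cells and 284 ± 4.27 CPM in vehicle cells (log2 fold change of 1.32 ± 0.055, edgeR adjusted p = 7.6e-11). DNAJA3, its J-domain cochaperone, rose by 0.81 ± 0.051 and TRAP1, the mitochondrial HSP90, by 0.51 ± 0.048. The disaggregase CLPB, at 0.13 ± 0.076, did not pass (edgeR adjusted p = 0.159).

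Processing peptidases and oligopeptidases were higher in 4 and lower in 2 of 11, with a median of 0.12. These counts stand beside 31.9% higher and 31.0% lower over all genes tested. The rhomboid protease PARL rose by 0.55 ± 0.078, and the serine protease-like LACTB by 0.25 ± 0.067. HTRA2, a serine protease of the intermembrane space, rose by 0.19 ± 0.063 (edgeR adjusted p = 0.0153), a call lost without frankincense replicate 1 or 2 or vehicle replicate 2 or 3 (adjusted p of 0.0618, 0.0539, 0.0846 and 0.0526). PMPCA, a subunit of the peptidase that removes import signals, fell by 0.27 ± 0.054 in counts (edgeR adjusted p = 4.6e-04) and averaged 50.3 TPM in treated and 50.1 TPM in vehicle cells. The signal peptidase subunit IMMP1L fell by 0.33 ± 0.13 (edgeR adjusted p = 0.0351), and this call needed every library other than frankincense replicate 3 (adjusted p between 0.0517 and 0.116 with one of them removed).

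Scaffolds, partners and substrates of the inner membrane proteases were higher in 6 and lower in 1 of 9, with a median of 0.34. GHITM, an inner membrane partner of AFG3L2, rose by 0.70 ± 0.054, the phosphatase PGAM5, a PARL substrate, by 0.58 ± 0.059, and MAIP1, which binds AFG3L2 and SPG7, by 0.51 ± 0.073. OPA1, the fusion protein cut by OMA1 and YME1L1, averaged 80.6 ± 5.96 CPM in treated and 90.1 ± 5.48 CPM in vehicle cells, with overlapping groups. It fell by 0.16 ± 0.063 on the log2 scale (edgeR adjusted p = 0.0368), a call lost without frankincense replicate 1 or 3 (adjusted p of 0.142 and 0.0672) or vehicle replicate 1 or 3 (0.0753 and 0.177), and its sign was positive on the TPM scale.

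A list of 5 stress genes held the kinase HRI, on which DELE1 acts, with ATF4, ATF5, DDIT3 and the separate heat shock regulator HSF1, and 3 were higher and 0 lower. EIF2AK1, which encodes HRI, was at -0.14 ± 0.068 (edgeR adjusted p = 0.0928). It was called lower with upper-quartile factors (-0.18, adjusted p = 0.0285) and with at least 5 CPM in 3 libraries (-0.17, adjusted p = 0.0417), was at -0.04 without frankincense replicate 3, and had a positive sign on the TPM scale. ATF4 rose by 0.50 ± 0.074 (edgeR adjusted p = 4.0e-05) and HSF1 by 0.34 ± 0.056. DDIT3, which encodes CHOP, averaged 177 ± 14.5 CPM in treated cells and 31.3 ± 2.8 CPM in vehicle cells, a log2 fold change of 2.50 ± 0.076. Cleavage of DELE1 was not measured, and the cause of the ATF4 and DDIT3 rises was not tested. ATF5, a factor tied to the mitochondrial stress response, was at 0.02 ± 0.072 (edgeR adjusted p = 0.868), and was called higher on the log2(TPM + 1) scale (0.27, limma adjusted p = 0.0124). It was not called after TPM was rescaled without mitochondrially encoded genes (0.09, limma adjusted p = 0.307).

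On the outer membrane, quality control and mitophagy genes went both ways, with 4 higher and 5 lower of 10 tested and a median of -0.12. ATAD1, an extractor of misplaced proteins, rose by 0.60 ± 0.062, the ubiquitin ligase MARCHF5 by 0.48 ± 0.058, and the mitofusin MFN1 by 0.36 ± 0.056. The mitophagy receptors BNIP3 and BNIP3L fell by 0.65 ± 0.055 and 0.52 ± 0.058, and PINK1, the kinase that marks damaged mitochondria, by 0.34 ± 0.055. The falls of BNIP3L and PINK1 were not called on the log2(TPM + 1) scale (limma adjusted p of 0.0694 and 0.135). After TPM was rescaled without mitochondrially encoded genes they were called, at -0.34 and -0.30 (limma adjusted p of 0.00195 and 0.00295).

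**Figure D5:**
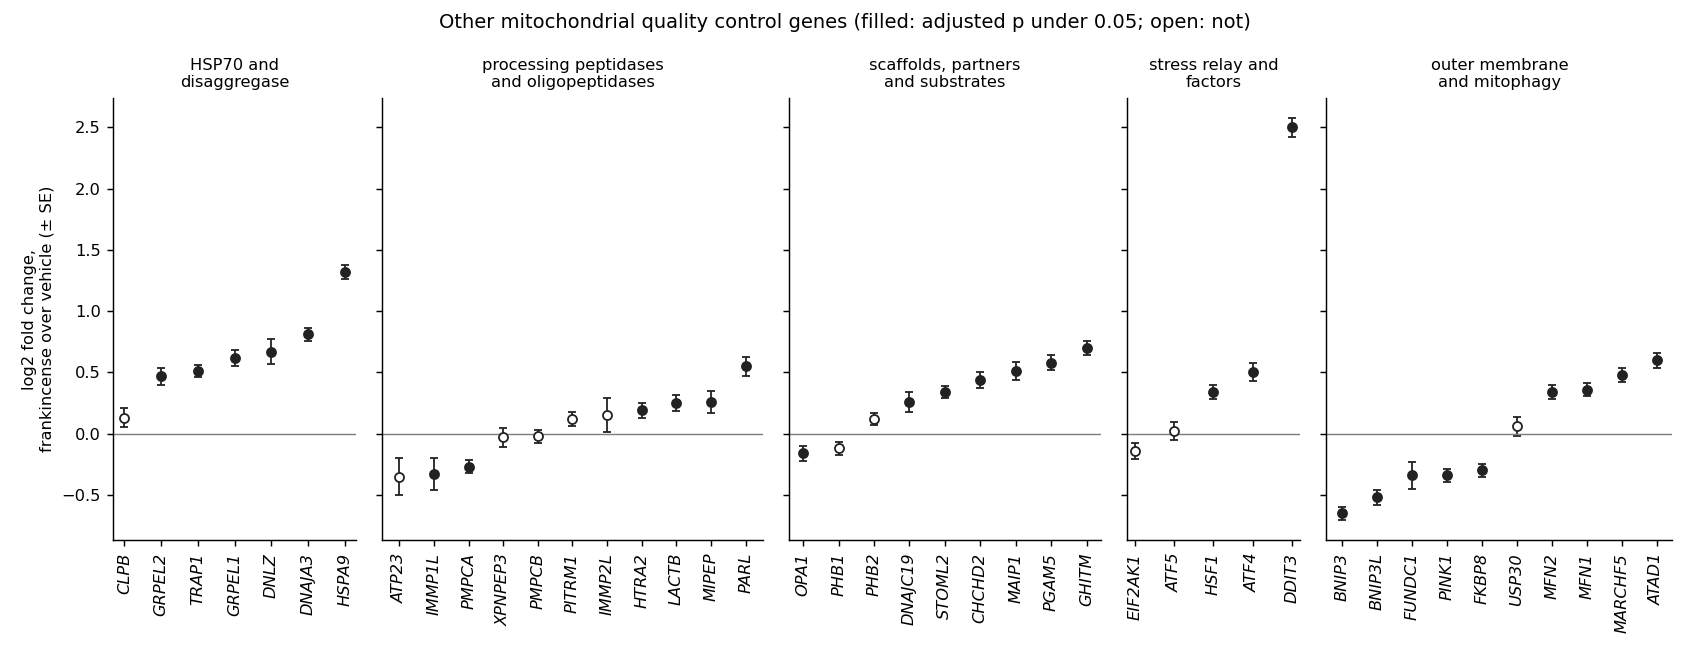
Log2 fold change (frankincense over vehicle, with SE, from counts) of 42 other mitochondrial quality control genes in 5 lists, each sorted by value. Filled points passed an adjusted p of 0.05 in edgeR; HSPA9 at 1.32 and DDIT3 at 2.50 are the highest.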

How the data were processed

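Per the submitters' processing notes, the authors used STAR and RSEM 1.3.1 on GRCh38; STAR's version, the annotation and any filters on reads are not stated. The authors' expected counts are, per the file headers, RSEM's estimated reads per gene. The deposited TPM values sum to the same total per library; the authors' FPKM values (per length and depth) entered no test. Transcript lengths are in the same files. Symbols came from a gene name table (60419 of 60616 identifiers) and positions and exons from GENCODE 29 (GRCh38).

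The main test, after rounding of the expected counts, was that of edgeR 4.0.16 under R 4.3.3 (filterByExpr, TMM, robust quasi-likelihood fit in its legacy form, two-sided, Benjamini-Hochberg over 16719 genes). Genes were called at an adjusted p under 0.05. Log2 lengths were tested with limma 3.58.1 over 13734 genes, and TPM with limma on log2(TPM + 1), a scale that understates changes of low genes. The scripts were tested on simulated data. Each SE in the count test was derived from the fold change and its F statistic. Ratios between genes used exact permutation tests. DESeq2 1.42.0 and limma-voom were among 19 alternatives. At these depths 3 counts in a library equal 0.109 to 0.133 CPM, for counting error only. Chi-square values between libraries of a group were 3.65 to 12.9 per degree of freedom, more than counting error alone. Each library was counted as a sample, though these values cannot tell whether libraries came from separate cultures. The genes and lists were chosen with earlier results of these data known. From each list up to 3 called genes in each direction with the smallest adjusted p were named, with 6 genes named whatever their result; CLPB and genes with overlapping exons were added after their values were seen.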

Additional observations from a re-analysis of the deposited data

How the results depend on the processing

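HSPD1, HSPE1, LONP1, YME1L1 and AFG3L2 had the same direction and call under all 19 alternatives, with log2 fold changes of 0.56 to 0.85, -0.80 to -0.49, 1.04 to 1.3, 0.48 to 0.76 and 0.47 to 0.75. Of the 10 genes, 4 to 6 were higher and 2 lower when a library was left out. On log2(TPM + 1) and log2(TPM + 0.1), 1 of the 10 genes and 1 list gene were called lower; with a library left out, 5 to 8 list genes were. CLPX was at 0.03 with library size scaling, 0.20 and 0.21 with those TPM scales, and 0.03 on TPM without mitochondrially encoded genes. On log2(TPM + 1) and log2(TPM + 0.1) OPA1 was at 0.09 and EIF2AK1 at 0.10. ATF5 was at -0.03 with upper-quartile factors, -0.01 with at least 5 CPM in 3 libraries, and -0.04 to 0.08 with a library left out. Calls were lost with upper-quartile factors for CLPP, OMA1 and HTRA2 (adjusted p of 0.0502, 0.0627 and 0.0521), with DESeq2 for OMA1, IMMP1L and OPA1 (0.0633, 0.173 and 0.0854), with library size scaling for IMMP1L and OPA1 (0.0998 and 0.262), and without a filter for IMMP1L (0.0795). DELE1 was called at 0.17 with library size scaling (adjusted p = 0.0205). Of the 10 genes, the number with a called length change was 0 with effective length, 0 with the replicate block, and 0 with any library left out. The log2 ratio of OMA1 to YME1L1 was -0.48 to 0.06 and that of DELE1 to OMA1 -0.22 to 0.29 with a library left out, and DELE1 to OMA1 was at -0.14 from counts; the cause of these differences was not tested.

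Treated and vehicle libraries share replicate numbers that are not stated to mark a common culture. Deviations of same-numbered libraries from their group means correlated at 0.05, 0.10 and 0.04, each the highest for its number. Libraries with different numbers were at -0.07 to 0.02, and all of these correlations were weak. With the replicate block 10591 genes were called, against 10509 without it, with 6 of the 10 genes higher and 2 lower in both. Of the list genes 23 were higher and 9 lower with the block, against 23 and 8 without it.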

Other observations

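HSPE1-MOB4, a readthrough transcript that joins HSPE1 to the next gene and has the same RefSeq start window as HSPE1, averaged 8.11 ± 0.706 CPM in treated cells and 7.85 ± 1.80 CPM in vehicle cells (SD, n = 3 each). The groups overlapped, with a log2 fold change of 0.05 ± 0.15 (edgeR adjusted p = 0.793), while HSPE1 itself was at -0.73. The counts of the readthrough row were 148 to 239 per library and at most 6.26% of those of HSPE1. RSEM divides reads that fit both rows, so the values of the rarer row depend on that division, which was not tested.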
